A study of Mus musculus with 13 samples.

Results

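The 6 sialyltransferase genes followed here in mouse duodenum encode enzymes that attach sialic acid to galactose: St3gal4, St3gal1, St3gal3, St3gal5, St3gal6 and St6gal1. They were taken as every probe set, a set of short probes read as 1 value, that the array's annotation gives exactly 1 symbol equal to 1 of these 6 names. This gave 10 probe sets of 22690, of which 22626 are not array controls: 1 each for St3gal4 and St3gal1, and 2 each for St3gal3, St3gal5, St3gal6 and St6gal1. St3gal4 was chosen by its level on high-fat diet, which differed between genotypes on these same arrays, so its values there are given as a description with no test. The other 5 genes were added as relatives of St3gal4.

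Gene expression had been measured on 13 Affymetrix arrays, each with total RNA of 1 duodenum sample, from mutant mice, called ViRas in the labels, and from wild-type controls. The normal diet had 3 mutant and 2 wild-type arrays. The high-fat diet had 2 mutant and 2 wild-type arrays. The third diet, high-fat food with butyrate added (a fatty acid that bacteria of the gut release from fibre), had 3 mutant arrays and 1 wild-type array. Diets began at 5 weeks of age and lasted 22 weeks, and the strain background was mixed in all groups. The labels used here do not give the promoter that drives the mutant allele, and do not say whether the arrays of a group came from different animals. The p-values therefore reflect the spread between arrays, which may be technical. The samples' own names are numbered in a separate range on each diet, so diet and sample series cannot be told apart.

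Sialic acid is a negatively charged sugar that caps the outer ends of glycans on mucins, membrane proteins and glycolipids. Golgi sialyltransferases add it from the donor CMP-sialic acid: the ST3Gal enzymes join it to a terminal galactose in alpha2,3 linkage, and St6gal1 in alpha2,6 linkage. St3gal1 acts mainly on O-glycans of the mucin type, St3gal4 and St3gal6 on galactose at the ends of N-glycans and O-glycans, including the precursors of selectin ligands, and St3gal5 makes the ganglioside GM3 from lactosylceramide. In the intestine such caps lie on the mucus and the brush border, where bacteria and their toxins meet them.

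The sequences just upstream of the transcription start are shown for St3gal4, whose single probe set had the widest range of the 10, and for St3gal6, both of whose probe sets differed between genotypes. Each is 250 bases, read 5′ to 3′ on the gene's own strand, from RefSeq on GRCm38.p6. Capitals mark matches on either strand to any of 5 motifs. The Sp1 box was searched as GGGCGG and the core of ETS factor sites as CCGGAA. The AP-1 site was searched as TGANTCA, the TATA box as TATAAA, and the CCAAT box by the letters of its name.
St3gal4, chr9:35116865-35117114, minus strand: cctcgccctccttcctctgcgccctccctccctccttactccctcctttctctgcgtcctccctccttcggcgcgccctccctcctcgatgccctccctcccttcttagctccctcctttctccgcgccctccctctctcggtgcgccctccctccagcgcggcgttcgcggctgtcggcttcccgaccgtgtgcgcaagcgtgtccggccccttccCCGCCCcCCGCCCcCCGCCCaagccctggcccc
St3gal6, first start, chr16:58524254-58524503, minus strand: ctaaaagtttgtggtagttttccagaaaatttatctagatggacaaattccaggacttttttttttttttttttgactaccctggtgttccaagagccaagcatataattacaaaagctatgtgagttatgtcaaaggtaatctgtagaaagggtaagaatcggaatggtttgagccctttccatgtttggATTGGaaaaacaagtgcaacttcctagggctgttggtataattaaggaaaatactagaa
St3gal6, second start, chr16:58523427-58523676, minus strand: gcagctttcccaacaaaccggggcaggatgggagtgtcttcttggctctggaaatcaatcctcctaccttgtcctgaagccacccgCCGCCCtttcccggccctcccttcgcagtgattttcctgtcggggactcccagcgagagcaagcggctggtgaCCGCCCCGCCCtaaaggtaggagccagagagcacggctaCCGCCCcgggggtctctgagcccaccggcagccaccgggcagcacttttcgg
The St3gal4 window is 72.8% G and C, higher than 93.97% of 32851 mouse promoter windows of the same length, and holds 3 Sp1 boxes in a row near the start and no match to the other 4 motifs. The first St3gal6 window is 34.8% G and C with 1 CCAAT box, and the second is 64.4% with 4 Sp1 boxes, of which a pair overlaps. Among all promoter windows 32.74% hold an Sp1 box, 12.03% an ETS core, 6.749% an AP-1 site, 12.37% a TATA box and 33.85% a CCAAT box. These matches describe the letters only. Of the members, 5 of 6 had a window in the table used, and St3gal1 did not.

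Values are log2 levels, on which a difference of 1 is a 2-fold change, and they ran from 1.76 to 14.17 over the table. The enterocyte list (Fabp1, Apoa4, Sis and others, 8 of 10 genes measured) averaged 12.40 to 13.17 on every array. The list for ileum and colon (4 of 5 measured) averaged 2.91 to 3.90. These lists have different probe sets, so the duodenal label was not tested with them. Acinar pancreas genes (14 of 18 measured) averaged from 5.87 to 12.90 between arrays, and stomach genes (5 of 6 measured) from 5.36 to 10.39. The samples thus held unequal amounts of RNA of these tissues. In whole tissue, fewer cells of a type and less RNA per cell cannot be told apart. Levels of different probe sets are not compared with each other, since each has its own probes.

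St3gal4 was high on 11 of the 13 arrays and low on both wild-type arrays of the high-fat diet. On normal diet its level (probe set 1425668_a_at) was 11.93, 12.11 and 12.06 in mutants, against 12.09 and 12.28 in wild type. On high-fat diet it was 11.10 on both mutant arrays, against 5.97 and 6.44 in wild type. On high-fat diet with butyrate it was 11.86, 11.89 and 12.09 in mutants, against 12.13 on the wild-type array. Both wild-type high-fat arrays thus lay below every other array, and the mutant high-fat arrays lay below all 9 arrays of the other diets.

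**Figure D1:**
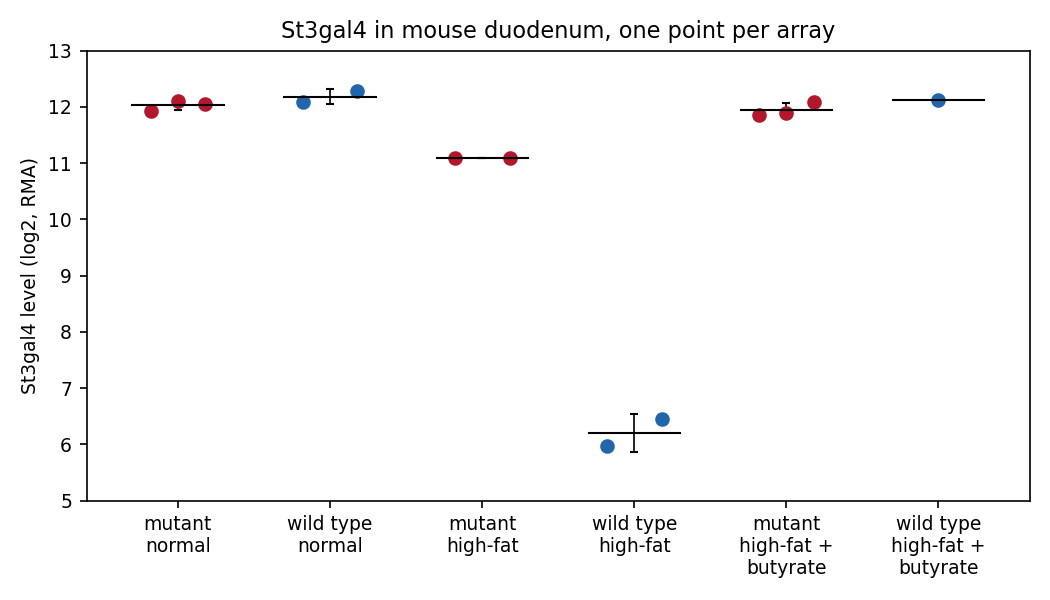
St3gal4 level (log2, RMA) by genotype and diet, 1 point per array, with the group mean as a line and the SD as bars where a group has at least 2 arrays. The 2 wild-type high-fat arrays lie at 5.97 and 6.44, and the other 11 arrays between 11.10 and 12.28.

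The mean on high-fat diet was 11.10 in mutants and 6.21 ± 0.33 in wild type (SD, n = 2 each), a difference of 4.89 or 29.7-fold. Against normal diet, the high-fat mean was 5.98 lower in wild type (62.9-fold, with 12.18 ± 0.14 on normal diet, n = 2) and 0.93 lower in mutants (1.91-fold, with 12.03 ± 0.09 on normal diet, n = 3). With butyrate added, the mean was 0.84 above high-fat diet alone in mutants (11.95 ± 0.12, n = 3), and the single wild-type array was 5.92 above it. These differences involve the arrays that brought St3gal4 into the set and are descriptions without a test. Leaving out either wild-type high-fat array gave a genotype difference of 4.66 or 5.13.

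Ordered by mean, the groups ran wild type on normal diet, wild type on butyrate, mutants on normal diet and mutants on butyrate, with steps of 0.06, 0.09 and 0.09 between neighbours. Then came mutants on high-fat diet, 0.84 lower, and wild type on high-fat diet, another 4.89 lower. The first 3 steps were close to the SDs within these groups (0.09 to 0.14), and neighbouring groups in this order overlapped, except that the single wild-type butyrate array (12.13) lay just above the highest mutant array on normal diet (12.11). In the comparisons between groups other than those on high-fat diet alone, the limma test made no call for St3gal4. The spread behind these tests was taken from all groups, including the high-fat arrays that brought St3gal4 into the set. The largest group SD was that of wild type on high-fat diet (0.33). The difference of mutants from wild type was -0.15 ± 0.13 on normal diet (SE, adjusted p = 0.70, 95% interval -0.44 to 0.14) and -0.18 ± 0.17 on butyrate (adjusted p = 0.94, -0.55 to 0.19), where the lone wild-type array took its spread from the other groups. Mutants on butyrate differed from mutants on normal diet by -0.09 ± 0.12 (adjusted p = 0.767, -0.35 to 0.18).

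The separation of the wild-type high-fat arrays can be set beside that of all other probe sets. Both lay below the other 11 arrays in 810 of 22626 probe sets (3.58%) and above them in 577 (2.55%). For St3gal4 the lowest of the 11 arrays stood 4.66 above the higher of the 2 wild-type high-fat arrays. The next gap among probe sets with 1 symbol was 0.77, for Edc4, a scaffold of mRNA decapping, followed by 0.63 for Angptl4, an inhibitor of lipoprotein lipase, and 0.62 for the protease inhibitor Serpinb1a. A gap of more than 1 downward was found in 1 probe set (0.00442%), which is St3gal4, and upward in 2 (0.00884%). St3gal4 was chosen by its high-fat level on these same arrays, so its place here describes that choice and tests nothing. St3gal4 was read by a single probe set, so no second one could be set against it.

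Marker lists of other tissues and cell types also varied between the high-fat arrays. Stomach genes (5 of 6 measured) averaged 8.27 and 7.64 in mutant, against 10.39 and 5.59 in wild-type, high-fat duodenum. The acinar pancreas list averaged 10.46 and 5.87 in mutant, against 10.97 and 12.76 in wild-type, high-fat duodenum. Over the 9 arrays of the other diets this list ran from 5.90 to 12.90, and St3gal4 from 11.86 to 12.28. The part of stomach and pancreas RNA in the St3gal4 values was not tested. Paneth cell genes (4 of 5 measured) averaged 7.56 to 9.12 in mutant against 10.30 to 10.33 in wild-type high-fat arrays, and macrophage genes (7 of 7) 6.66 to 7.25 against 7.82 to 8.02. In wild type on normal diet, where St3gal4 was 12.09 and 12.28, Paneth genes averaged 10.99 to 11.44, above the wild-type high-fat arrays, and macrophage genes 7.88 to 8.29, overlapping them. The part of these cells in the St3gal4 values was not tested. Enterocyte genes differed by little between the high-fat groups, 12.89 to 13.07 in mutants and 12.95 to 13.17 in wild type.

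The profiles most like St3gal4, by the root mean square difference over the 13 arrays after each profile's own mean was subtracted, were Rbm39 (1.40), Ahcyl2 (1.47), Lpp (1.47), Nisch (1.48) and Snrnp48 (1.49). A flat profile would differ from St3gal4 by 2.08, so likeness was limited. Rbm39, an RNA-binding splicing factor, was 4.39 to 5.02 in mutants and 4.34 to 4.90 in wild type on high-fat diet, and 6.84 to 7.76 on the other 9 arrays. Lpp, a protein of cell adhesions, was 5.42 to 5.87 in mutants and 5.33 to 5.82 in wild type on high-fat diet, and 7.48 to 8.42 elsewhere. The same holds for Ahcyl2, Nisch and Snrnp48: each was lower on all 4 high-fat arrays than on the other 9, in both genotypes, whereas St3gal4 was much lower in wild type.

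**Figure D2:**
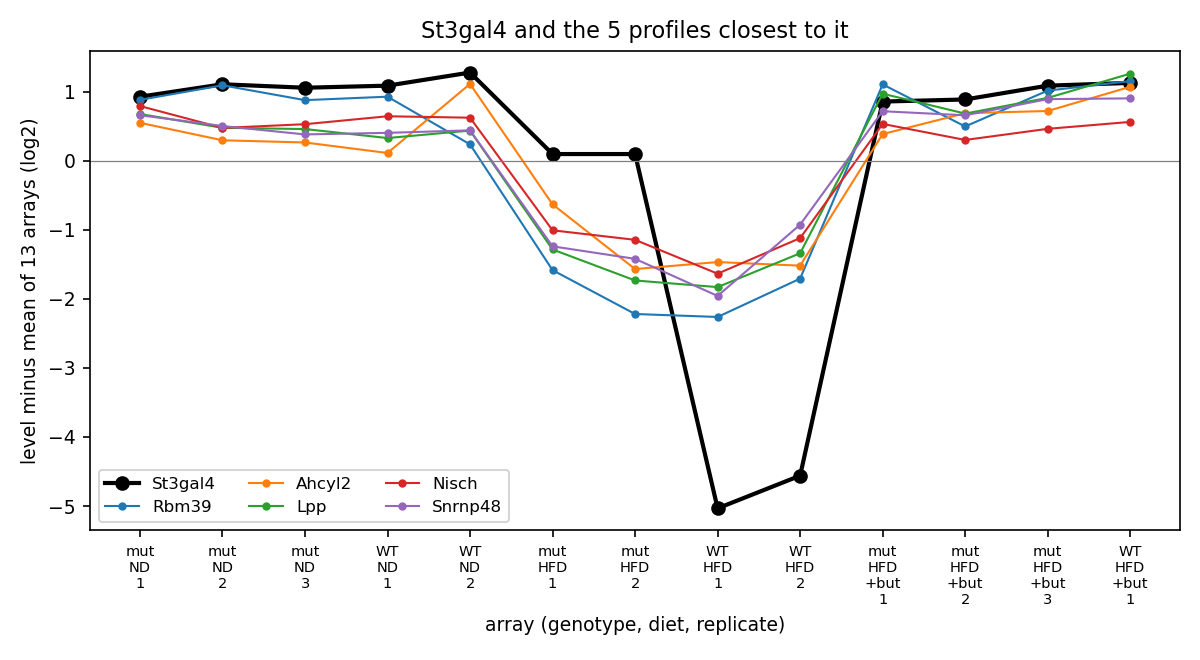
Levels of St3gal4 and of the 5 closest profiles on each of the 13 arrays, each minus its own mean over the arrays (log2). The 5 other genes lie lower on mutant and wild-type high-fat arrays alike, while St3gal4 lies far lower on the 2 wild-type high-fat arrays.

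The genes that lie beside St3gal4 in RefSeq order were compared between genotypes on high-fat diet. The 4 nearest measured genes on each side, Kcnj5, Kcnj1, Fli1 and Ets1 on one and Dcps, Tirap, Foxred1 and Srpr on the other, have 16 probe sets. In limma, 0 of 16 passed an adjusted p of 0.05 between genotypes on high-fat diet, where 0.0221% of all probe sets did. At so small a share, a count of 0 says little about these genes. The probe sets of Kcnj5, Kcnj1 and Fli1 lay between 2.57 and 4.73 on all arrays, with no room for a fall as large as that of St3gal4. Apart from Srpr 1423670_a_at (9.095 to 9.687), the other probe sets stayed at or below 7.45, in a table whose lowest value was 1.76. That left them little or no room for such a fall. The differences of the 16 probe sets, mutant minus wild type, ran from -0.73 to 0.28. The one with the lowest adjusted p was Dcps, the scavenger decapping enzyme next to St3gal4, with means of 6.16 in mutants and 6.89 in wild type (1424080_at, -0.73 ± 0.16 SE, adjusted p = 0.189).

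St3gal6, which like St3gal4 caps terminal galactose, was higher in mutant than in wild-type duodenum on normal and high-fat diet, by both of its probe sets. On normal diet probe set 1449078_at was 9.16, 8.97 and 9.04 in mutants, against 8.15 and 8.23 in wild type. On high-fat diet it was 9.03 and 8.81 in mutants, against 8.23 and 8.17 in wild type. All 5 mutant arrays of these diets lay above all 4 wild-type arrays. The second probe set, 1449079_s_at, was 9.21, 9.04 and 9.22 in mutants against 8.40 and 8.46 in wild type on normal diet, and 9.18 and 9.24 in mutants against 8.93 and 8.77 in wild type on high-fat diet. The genotypes did not overlap here either. All 5 mutant arrays stood above all 4 wild-type arrays in 535 of 22626 probe sets (2.36%), and below them in 421 (1.86%).

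With diet as a term over these 9 arrays, limma gave a genotype difference for 1449078_at of 0.80 ± 0.08 (SE, 1.74-fold, adjusted p = 0.00136), with means of 9.0 ± 0.13 in 5 mutant and 8.20 ± 0.04 in 4 wild-type arrays (SD). For 1449079_s_at it was 0.56 ± 0.09 (1.48-fold, adjusted p = 0.0121), with means of 9.18 ± 0.08 in mutants and 8.64 ± 0.25 in wild type. These were 2 calls among 9 probe sets of the 5 genes other than St3gal4, where 3.34% of all probe sets passed in either direction and 1.68% were higher in mutants. Both passed in each of the 9 fits that left out 1 array, with 0.76 to 0.85 and 0.50 to 0.63. With replicate number as a further term in limma, 1449078_at passed and 1449079_s_at did not (adjusted p = 0.0506).

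With butyrate, St3gal6 probe set 1449078_at was 8.91, 9.45 and 8.63 in mutants, against 8.76 on the wild-type array, and 1449079_s_at was 8.90, 9.70 and 8.83, against 9.01. The single wild-type array lay within the range of the mutants on both. A single array has no spread of its own and took that of the other groups, so the fit says little about this contrast. The limma difference there was 0.24 ± 0.24 (SE, adjusted p = 0.947, 95% interval -0.29 to 0.76) and 0.14 ± 0.26 (adjusted p = 0.99, -0.44 to 0.71). Over all 13 arrays the difference was 0.66 ± 0.13 (adjusted p = 0.0556) and 0.45 ± 0.14 (adjusted p = 0.138), and 0 of 9 probe sets passed, where 0.292% of all did. At an unadjusted p under 0.05 there were 3 of 9, beside 15.2% of all probe sets.

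Within single diets limma called 0 of the 9 probe sets. On normal diet St3gal6 differed by 0.86 ± 0.19 (SE, adjusted p = 0.158) and 0.73 ± 0.21 (adjusted p = 0.215), where 0.0133% of all probe sets were called. At an unadjusted p under 0.05 there were 3 of 9, beside 11.6% of all. On high-fat diet it differed by 0.72 ± 0.21 (adjusted p = 0.265) and 0.36 ± 0.23 (adjusted p = 0.616), and 2 of 9 had an unadjusted p under 0.05, beside 10.6% of all. The change of the genotype difference between these diets, high-fat minus normal, was -0.15 ± 0.28 (adjusted p = 0.975) and -0.37 ± 0.31 (adjusted p = 0.928), and 0 of 9 probe sets passed, where 0.00884% of all did. At an unadjusted p under 0.05 this change gave 0 of 9, beside 5.26% of all. On butyrate 0.00% of all probe sets passed, and 0 of 9 reached an unadjusted p under 0.05, beside 6.11% of all.

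Other cell type markers moved with genotype over the same 9 arrays. Paneth cell genes averaged 7.56 to 9.42 in mutants against 10.30 to 11.44 in wild type, and macrophage genes 6.66 to 7.40 against 7.82 to 8.29. T cell genes (5 of 6 measured) averaged 5.51 to 5.85 in mutants against 5.85 to 6.50 in wild type, so that these ranges met at 5.85. These lists were lower in mutants, whereas St3gal6 was higher, and their part in the St3gal6 difference was not tested. Enterocyte genes overlapped, at 12.74 to 13.07 in mutants and 12.72 to 13.17 in wild type.

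**Figure D3:**
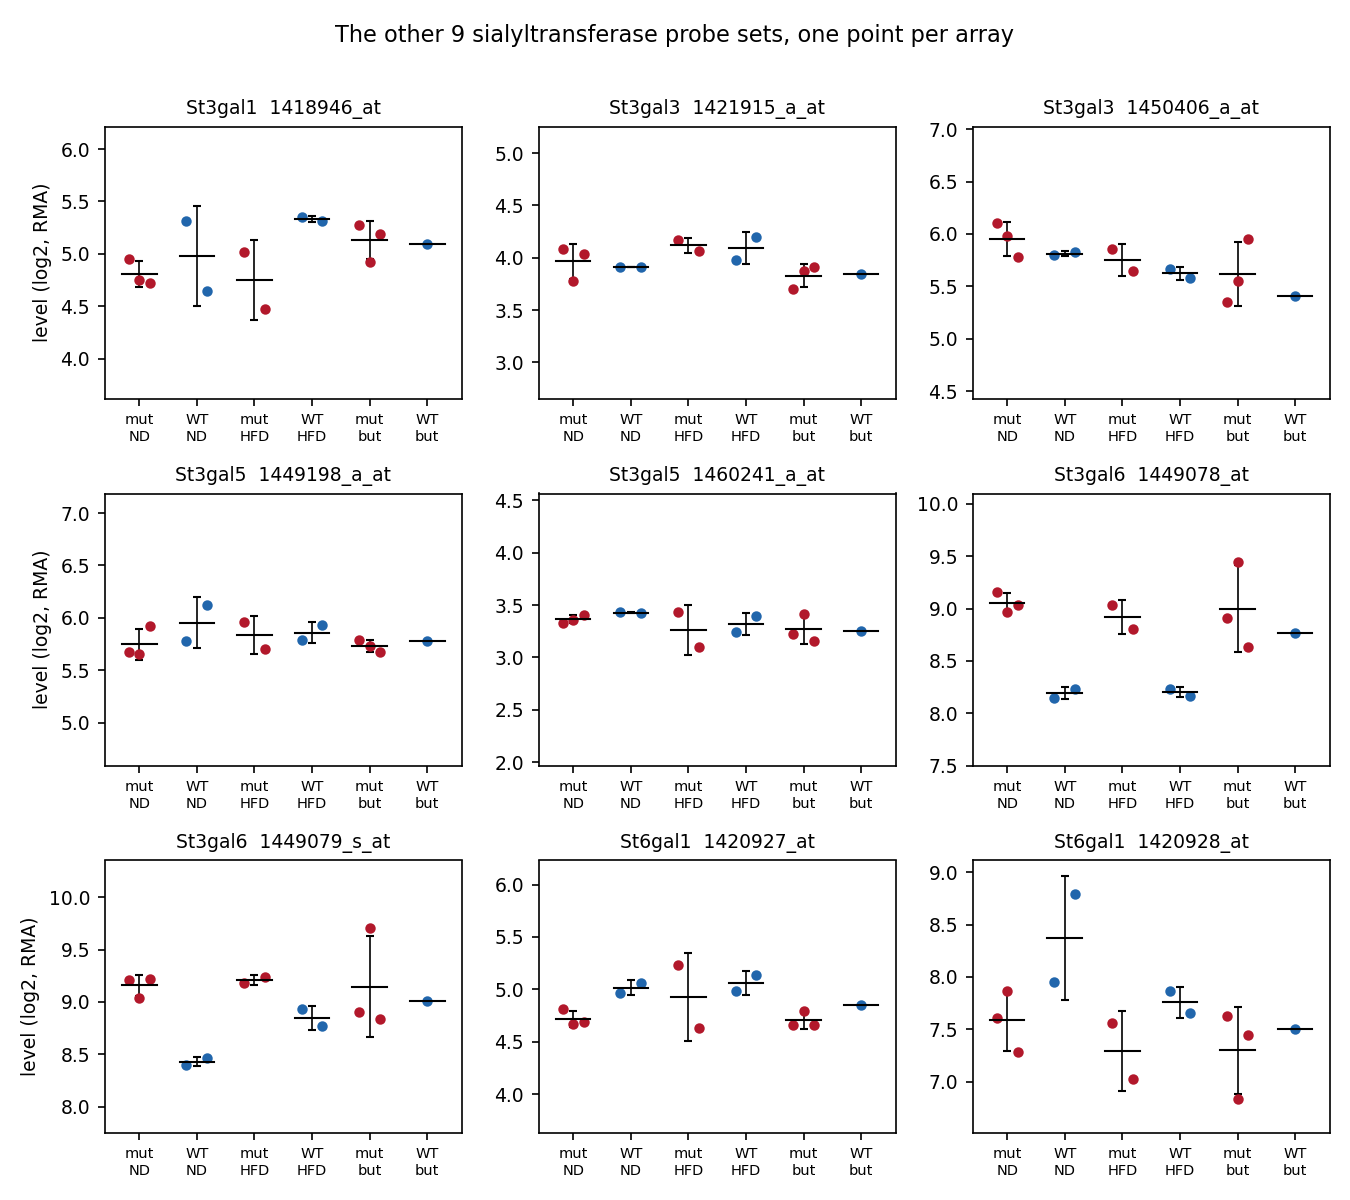
Levels (log2, RMA) of the 9 probe sets of St3gal1, St3gal3, St3gal5, St3gal6 and St6gal1 by group, 1 point per array, with group means as lines and SD as bars where a group has at least 2 arrays. Each panel has its own level range of equal width. The mutant points of both St3gal6 panels lie above the wild-type points on normal (ND) and high-fat diet (HFD) and not on butyrate (but).

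St6gal1, which makes the alpha2,6-linked sialic acid that lectins such as CD22 bind, had lower means in mutants on every diet by both of its probe sets, without passing the test. Probe set 1420928_at was 7.61, 7.87 and 7.28 in mutants against 7.95 and 8.79 in wild type on normal diet, 7.56 and 7.02 in mutants against 7.86 and 7.65 in wild type on high-fat diet, and 7.62, 6.83 and 7.45 in mutants against 7.50 in wild type on butyrate. Over the 9 arrays of normal and high-fat diet the genotypes overlapped, and on butyrate the wild-type array lay among the mutants. The difference was -0.64 ± 0.19 over the 9 arrays without butyrate (SE, adjusted p = 0.108, 95% interval -1.06 to -0.22) and -0.53 ± 0.18 over all 13 (adjusted p = 0.181). B and plasma cell genes (5 of 7 measured) averaged 6.81 to 7.25 in mutants and 7.65 to 8.07 in wild type on normal diet. On high-fat diet these genes overlapped, at 6.52 to 7.17 in mutants and 7.06 to 7.12 in wild type. On butyrate they were higher in mutants, at 6.795 to 6.915 against 6.595 on the wild-type array. Their part in the St6gal1 values was not tested. The other probe set, 1420927_at, was 4.67 to 4.81 in mutants against 4.96 to 5.06 in wild type on normal diet, 4.63 to 5.23 against 4.98 to 5.14 on high-fat diet, and 4.66 to 4.80 against 4.85 on butyrate. On high-fat diet the genotypes overlapped, and on butyrate wild type has a single array. The difference over the 9 arrays was -0.22 ± 0.13 (adjusted p = 0.435).

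St3gal1 was 4.95, 4.75 and 4.72 in mutants against 5.32 and 4.64 in wild type on normal diet. On high-fat diet it was 5.02 and 4.48 in mutants against 5.35 and 5.31 in wild type, and on butyrate 5.27, 4.93 and 5.19 against 5.09. The genotypes overlapped on normal diet and on butyrate. The high-fat difference was -0.59 ± 0.23 (SE, adjusted p = 0.412, 95% interval -1.09 to -0.08), and it did not pass the limma threshold.

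St3gal3, another ST3Gal of galactose-ended glycans, and St3gal5, the GM3 synthase, showed no genotype difference past the threshold. The St3gal3 probe sets ran from 3.70 to 4.20 (1421915_a_at) and from 5.35 to 6.1 (1450406_a_at) over the 13 arrays. Those of St3gal5 ran from 5.65 to 6.12 (1449198_a_at) and from 3.10 to 3.44 (1460241_a_at). Over the 9 arrays without butyrate the genotype differences were 0.04 ± 0.10 and 0.13 ± 0.10 for St3gal3 and -0.12 ± 0.12 and -0.06 ± 0.09 for St3gal5 (SE), with adjusted p from 0.561 to 0.884. The 95% intervals of these 4 lay between -0.38 and 0.35, so changes of 1 in the measured level lie outside them. Probe sets 1421915_a_at and 1460241_a_at lay low in a table that ran from 1.76 to 14.17. Their intervals may therefore say little about the transcripts.

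**Figure D4:**
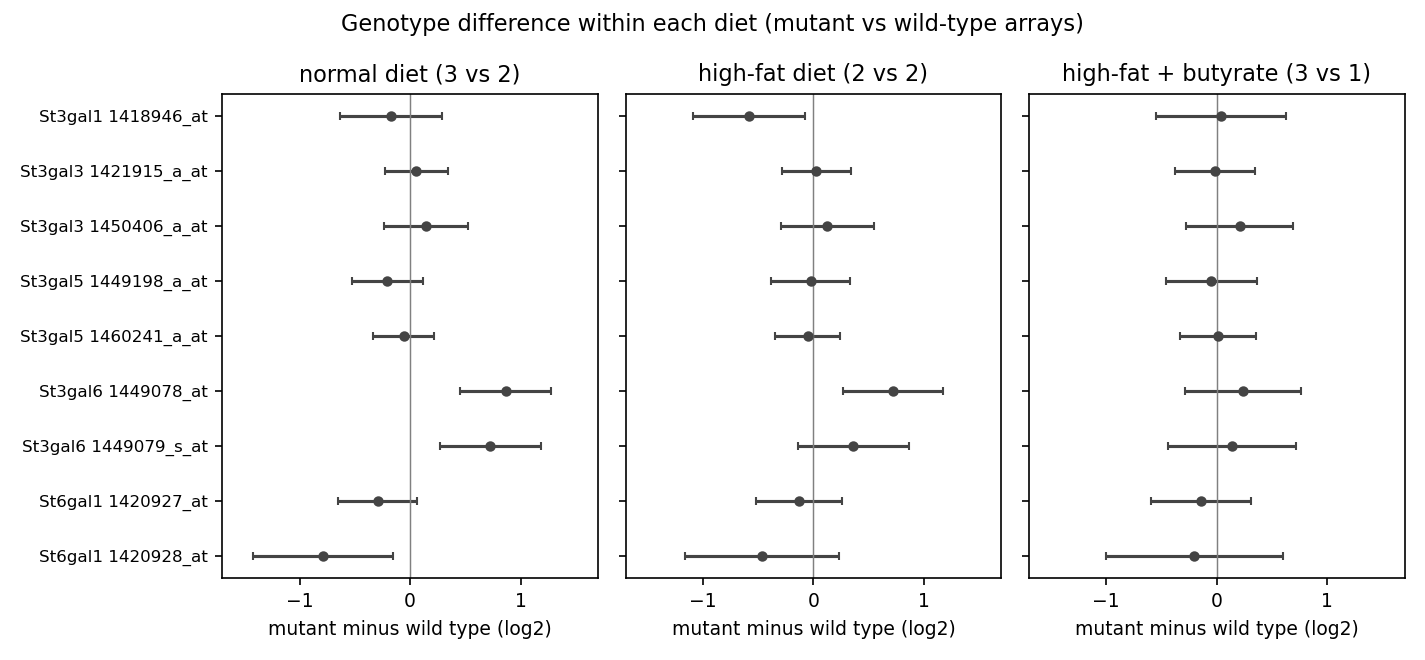
Genotype difference (log2, mutant minus wild type, with 95% intervals from limma) of each of the 9 probe sets on normal diet, high-fat diet and high-fat diet with butyrate. The St3gal6 probe set 1449078_at lies at 0.86 with normal diet, 0.72 with high-fat diet and 0.24 with butyrate, the other at 0.73, 0.36 and 0.14, and 0 of the 9 probe sets passed an adjusted p of 0.05 on any of the 3 diets.

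Between diets, 0 of the 9 probe sets of the 5 other members passed the limma threshold. High-fat against normal diet called 0 of 9 in mutants (21.0% of all probe sets) and 0 of 9 in wild type (14.1%). At an unadjusted p under 0.05 there were 0 of 9 in both, beside 33.6% of all probe sets in mutants and 29.0% in wild type. Their differences ran from -0.29 to 0.21 in mutants and from -0.61 to 0.42 in wild type. Butyrate against high-fat diet in mutants called 0 of 9 (23.6% of all), and St3gal3 1421915_a_at was the 1 probe set with an unadjusted p under 0.05 (-0.29 ± 0.13 SE, adjusted p = 0.134), beside 35.8% of all. Butyrate against normal diet in mutants called 0 of 9 (2.65% of all), with 0 at an unadjusted p under 0.05, beside 17.6% of all. The wild-type differences between high-fat and normal diet that lay farthest from 0 were those of St6gal1 1420928_at, at -0.61 ± 0.32 (adjusted p = 0.227), and St3gal6 1449079_s_at, at 0.42 ± 0.23 (adjusted p = 0.255).

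The rest of the sialic acid pathway was read from 8 lists with 57 measured genes and 89 probe sets, covering donor synthesis, the other sialyltransferases, galactose acceptors, competing caps, removal and binding. Between genotypes over the 9 arrays without butyrate, 3 of 89 probe sets passed, or 3.37%, beside 3.34% of all probe sets. The list median was 0.06 and that of all probe sets 0.02. All 3 calls were B4galt6, which adds the galactose of lactosylceramide, the substrate of St3gal5. Its probe set 1460329_at was 10.28, 10.39 and 10.21 in mutants against 10.01 and 9.78 in wild type on normal diet, and 10.51 and 10.44 in mutants against 9.84 and 9.68 in wild type on high-fat diet. The 5 mutant arrays lay above the 4 wild-type arrays, and the difference was 0.54 ± 0.09 (SE, adjusted p = 0.0123), passing in all 9 fits that left out 1 array. The probe sets 1423228_at (0.59 ± 0.13, adjusted p = 0.042) and 1450913_at (0.56 ± 0.13, adjusted p = 0.0486) each passed in 1 of these 9 fits, with adjusted p up to 0.115 and 0.129. The remaining probe set of the gene, 1435758_at, differed by 0.41 and did not pass. In the genotype comparisons over all 13 arrays and within each diet, and in the change of the genotype difference with high-fat diet, 0 of 89 passed.

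**Figure D5:**
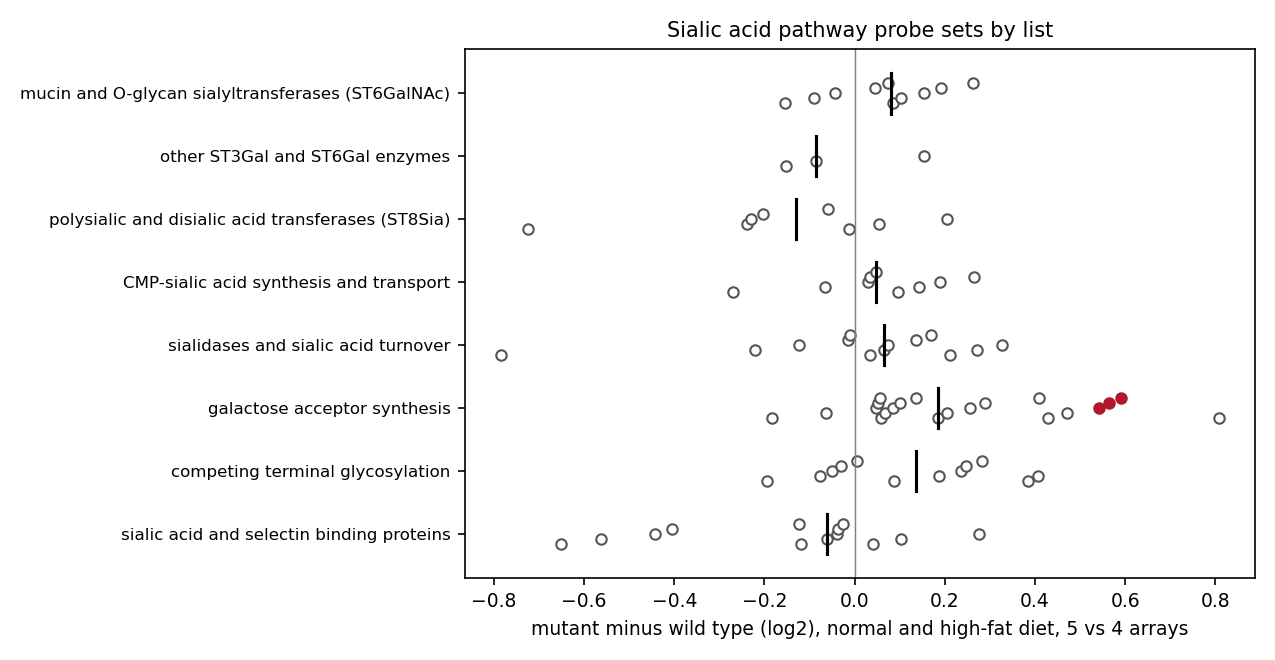
Genotype difference (log2, mutant minus wild type) over the 9 arrays of normal and high-fat diet for each of the 89 probe sets of 8 sialic acid pathway lists, 1 point per probe set, with the list median as a line. The 3 filled points, at 0.54, 0.56 and 0.59 in the galactose acceptor list, are the B4galt6 probe sets that passed an adjusted p of 0.05.

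On high-fat against normal diet in mutants, 13 pathway probe sets of 11 genes rose and 5 of 4 genes fell. That is 20.2% of 89, beside 21.0% of all probe sets. Region markers moved on the same arrays: in mutants the duodenal list (6 of 6 genes measured) averaged 9.35 to 10.03 on high-fat against 8.57 to 8.66 on normal diet, and the list for ileum and colon 3.65 to 3.90 against 3.00 to 3.07. Their part in these diet differences was not tested. In the list for the donor CMP-sialic acid, 4 of 9 probe sets fell and 0 rose, 44.4% beside 21.0% of all in either direction. Shares of all probe sets by direction are not given here. The list median was -0.27 against 0.00 for all probe sets. The calls were Nans, the sialic acid synthase (-0.65 and -0.66), Nanp, the phosphatase after it (-0.45), and Slc35a1, the Golgi transporter of CMP-sialic acid (-0.55 on 1 of 2 probe sets, with -0.19 on the other). Each of these 4 calls failed in at least 1 fit that left out 1 array. In the acceptor list 5 of 21 rose and 0 fell, 23.8% and so near the 21.0% of all in either direction. Ugcg, which makes glucosylceramide, rose by 1.28 ± 0.17 (SE, adjusted p = 0.000422) and 1.17 on 2 of 3 probe sets, with 0.41 on the third. The lactosylceramide synthases B4galt5 (0.95 ± 0.13, adjusted p = 0.000446) and B4galt6 (0.84 and 0.58 on 2 of 4 probe sets, with 0.18 and 0.27 on the others) rose as well. B4galt5 was 2.77 to 3.12 in mutants on normal and 3.90 to 3.95 on high-fat diet, low in a table that ran from 1.76 to 14.17.

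Among competing caps the fucosyltransferase Fut4 rose by 1.76 ± 0.31 (SE, adjusted p = 0.00258), B4galnt1, which extends GM3 to GM2, by 0.67, and B4galnt2, which builds the Sda antigen, by 0.35. The last 2 passed on 1 of 2 probe sets each, and their others differed by 0.29 and 0.53. Of the turnover genes Siae, which removes acetyl groups from sialic acid, rose by 1.31 ± 0.14 on 1 of 3 probe sets (1460387_a_at, adjusted p = 0.000159, with 0.11 and 0.41 on the others), the ganglioside sialidase Neu3 rose by 0.78, and Npl, which degrades free sialic acid, fell by 1.47 ± 0.30 (adjusted p = 0.00499). Of the binding proteins Siglece, an inhibitory receptor of myeloid cells, rose by 0.65, the P-selectin ligand Selplg by 0.47 and Mag by 0.44. Of these 18 calls, 6 passed in every fit that left out 1 array: Ugcg 1421269_at, B4galt5, Fut4, B4galnt2, Siae and Npl. The other 12 failed in at least 1 such fit, with adjusted p up to 0.327.

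In wild type the same diet comparison called 6 pathway probe sets of 5 genes higher and 2 of 2 genes lower, 8.99% beside 14.1% of all. Siae rose on 2 of 3 probe sets (1.32 ± 0.16 and 0.93 ± 0.21 SE, adjusted p = 0.000375 and 0.0129), with 0.18 on the third. Ugcg rose by 0.89, Selp, the endothelial P-selectin, by 0.97, Siglece by 0.74 and B4galnt1 by 0.58, while Nans fell by 0.58 and Siglecf, a receptor of eosinophils, by 1.1. Ugcg passed on 1 of 3 probe sets, and Selp, B4galnt1 and Nans on 1 of 2 each. In this comparison the duodenal list averaged 8.95 to 9.06 on high-fat against 8.45 on both normal diet arrays, and its part was not tested. Siae 1460387_a_at was the 1 call of 8 that passed in every fit leaving out 1 array, with levels of 8.18 to 8.24 on high-fat against 6.73 to 7.05 on normal diet. The mutant levels of that probe set were 8.22 to 8.34 on high-fat against 6.76 to 7.16 on normal diet.

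With butyrate added to the high-fat diet, 4 pathway probe sets rose in mutants and 9 fell, 14.6% beside 23.6% of all. This comparison shares the 2 mutant high-fat arrays with the one against normal diet. Slc35a1 (0.86 ± 0.16 SE, adjusted p = 0.00256), Nanp (0.48), Npl (1.32) and the polysialyltransferase St8sia4 (1.62 ± 0.32, adjusted p = 0.00424) were higher on butyrate. Siae (-1.20 ± 0.14, adjusted p = 0.000174), B4galt5 (-0.85), B4galnt1 (-0.84), Ugcg (-0.76 and -0.77, on 2 of 3 probe sets), B4galt6 (-0.43 and -0.56, on 2 of 4), Fut4 (-1.29) and St6galnac6, a sialyltransferase of gangliosides (-0.47), were lower. Slc35a1, St8sia4 and B4galnt1 passed on 1 of 2 probe sets each and Siae on 1 of 3. The duodenal list averaged 8.31 to 9.36 on butyrate against 9.35 to 10.03 on high-fat diet in mutants, and its part was not tested. Slc35a1, B4galnt1, B4galt5 and Siae passed in every fit that left out 1 array, and the other 9 calls did not, with adjusted p up to 0.295. Between butyrate and normal diet in mutants, St3gal2, an ST3Gal of O-glycans and gangliosides, was higher on 1 of 3 probe sets (0.69 ± 0.16, adjusted p = 0.0457, with -0.04 and 0.14 on the others) and the ganglioside sialyltransferase St6galnac5 lower on 1 of 2 (-0.47 ± 0.11, adjusted p = 0.044, with -0.24 on the other), 2.25% beside 2.65% of all probe sets, and neither passed in every fit that left out 1 array. Both lay low in the range of the table. The St3gal2 probe set was 4.19 to 4.36 on butyrate and 3.31 to 3.81 on normal diet, and that of St6galnac5 2.67 to 2.79 and 3.11 to 3.32.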

How the data were processed

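Total RNA (200 ng) of mouse duodenum was hybridised to 13 Affymetrix arrays. The deposited log2 values were made by the authors with Affymetrix Expression Console 1.1 and RMA, per the submitters' processing notes. The labelling kit in the protocol is one for arrays that read whole transcripts, whereas the probe sets carry the names of a design for transcript 3' ends, so the chemistry is not certain. Any pair of arrays shared at most 404 probe sets with equal values (3 decimals), and all 13 were kept as samples.

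Symbols came from the platform annotation: 20380 probe sets had 1 symbol, 691 several and 1555 none. Tests were run in limma 3.58.1 under R 4.3.3: linear models, moderated with a trend on mean level and two-sided, in 10 comparisons, each adjusted by Benjamini-Hochberg over 22626 probe sets with a threshold of 0.05. The fits used 6 group means over 13 arrays, or genotype with diet as a term over 13 arrays or the 9 without butyrate. Every adjusted p in the text comes from limma. The lone wild-type butyrate array was assumed to vary like the others. The procedure was tested on simulated data.

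The members and gene lists were chosen with earlier results of these data known. Named besides the members were the 5 profiles nearest to St3gal4, the 4 nearest measured genes on each side of it in RefSeq order, and pathway genes past the threshold, up to 4 of each list with the smallest p. Edc4, Angptl4, Serpinb1a and the B4galt6 probe set that did not pass were named after their values were seen. The gene altered in the mutants is not reported here. Alternatives were quantile normalization, leaving out probe sets under the 30th percentile of mean level, 1 probe set per gene, no trend, array weights, the compared arrays alone, a replicate block and leaving out each array.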

Additional observations from a re-analysis of the deposited data

How the results depend on the processing

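Calls among the 9 probe sets other than St3gal4 were counted again under each alternative. Over the 10 comparisons, 62 of 68 alternatives that left out no array kept the count, and 116 of 125 that left out 1 array did. Over all 3 diets the count of 0 became 1 with quantile normalization, without dim probe sets and with array weights, and ran from 0 to 1 when 1 array was left out, being 1 without the wild-type or any 1 of the mutant butyrate arrays. Without butyrate the count of 2 became 1 with 1 probe set per gene, which leaves a single St3gal6 probe set, and 1 with the replicate block; without 1 array it stayed at 2. On normal diet 0 became 1 with the compared arrays alone and ran from 0 to 2 when 1 array was left out. Leaving out 1 array gave 0 to 1 on high-fat diet, for high-fat against normal diet in wild type and for butyrate against high-fat diet in mutants, and 0 in the other 4 comparisons. Mutant butyrate array 2 was the one without which normal diet gave 2, and high-fat diet and both diet comparisons gave 1; without mutant high-fat array 2, butyrate against high-fat diet also gave 1. The cause was not tested.

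St3gal4 on high-fat diet differed by 4.95 with quantile normalization and by 4.66 to 5.13 when 1 array was left out. Counts over all probe sets moved more: over all 3 diets 66 probe sets passed, against 89 with quantile normalization, 155 without dim probe sets, 130 with array weights, and 304, 356, 109 and 312 without the wild-type and each mutant butyrate array. Deviations of same-numbered arrays from their group means had r = -0.04 on high-fat diet, and -0.25 and -0.35 on normal diet. The wild-type arrays of each of these diets deviated as mirror images. The same r therefore returned with opposite sign for the other wild-type array. With so few arrays, these values cannot decide whether the numbers pair the samples. With the replicate block 277 probe sets passed without butyrate, against 756, and the St3gal6 difference by 1449079_s_at was 0.53 (adjusted p = 0.0506); no other count of member calls changed with it. The number of arrays limits every comparison, and signal over background was not given in the files used here.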
